A study of Homo sapiens with 27 samples.

Results

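The 37 genes described here copy chromosomal DNA or supply its building blocks, and they were taken by gene symbol from a fixed list, as 37 of the 55882 symbols in each count file. The rule used symbols and no measured value, but the list was chosen with earlier results of these data known. Poly(A) RNA was sequenced from U2OS cells, a human osteosarcoma line, in 27 libraries. They come from 3 stably transduced lines, each collected on 3 days with 3 biological replicates a day. All 3 lines carry an integrated lentiviral pLKO.1 vector and were selected with puromycin. The control, which the sample titles call WT, has a blank vector, and MMP2sh1 (labelled 23) and MMP2sh2 (labelled 26) each express a short hairpin RNA against MMP2, the gene of the MMP-2 protease. Cells were collected as a subconfluent, proliferating culture (day −2), at confluence (day 0) and when overconfluent (day +2). Each construct is represented by 1 line, so that a property of the line and an effect of its hairpin cannot be told apart.

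Replication begins with licensing, when ORC, CDC6 and CDT1 load the ring of MCM2, MCM3, MCM4, MCM5, MCM6 and MCM7 onto origins in G1. In S phase MCM10, CDC45 and the GINS complex turn the ring into the active CMG helicase, polymerase alpha and primase lay down primers, and polymerases epsilon and delta extend the strands on the PCNA clamp, which the RFC complex loads. FEN1 and LIG1 join the lagging strand, RPA coats single-stranded DNA, and ribonucleotide reductase, thymidylate synthase, thymidine kinase and dUTPase set the pools of deoxynucleotides. Many of these genes are classical targets of E2F transcription factors and their mRNAs are known to fall when cells stop dividing, which untransformed cells do at confluence.

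Each library held 33580129 to 59374327 reads counted on genes (median 40075178), and each member between 921 and 30153 reads in every library. Levels are given as CPM, counts per 1000000 of the library total, scaled with TMM factors, and a log2 fold change is given with its standard error (±) from edgeR's quasi-likelihood fit of all genes in the libraries compared. A member is called, and said to rise or fall, when its Benjamini-Hochberg adjusted p over all genes tested is under 0.05. All 37 passed the filter on low counts in every comparison. The study describes its replicates as independent, and p-values measure the spread between them. MMP2, the targeted gene, was at 232 ± 14.2, 325 ± 6.97 and 489.5 ± 8.50 CPM (SD, n = 3) in the control on the 3 days, at 40.1 ± 6.45, 59.1 ± 6.54 and 97.1 ± 3.15 in MMP2sh1 and at 144 ± 10.4, 158 ± 3.28 and 278 ± 12.4 in MMP2sh2, below the control in every library of the same day. Of 9 osteoblast markers, RUNX2 (30.0 to 63.7 CPM), COL1A1 (1005 to 1486), SPARC (1182 to 2075) and SPP1 (6.33 to 26.3) were present and ALPL was at 0.397 to 6.98, while IBSP was at 0 in all libraries and SP7, BGLAP and COL1A2 stayed under 1 CPM. Of the epithelial markers KRT8 (225.9 to 569 CPM) and KRT18 (107 to 189) were also present, while EPCAM was at 3.12 to 6.73, CDH1 at 0 to 2.54 and KRT19 at 0 to 0.256. Of the endothelial markers VWF was at 1.30 to 4.74 CPM and CDH5 at 0 to 0.605, and PECAM1 was not among the symbols counted. Of the blood markers CD68 and CD3E stayed under 0.1 CPM, and PTPRC was at 0.0235 to 1.44, rising in the control from day −2 to day 0 (log2 fold change 2.22) and falling from day 0 to day +2 in the control (−2.96) and in MMP2sh1 (−2.06), and VWF fell over the same interval in both (−0.70 and −0.65). CDH5 was called in neither over that interval, and in MMP2sh1 it rose from day −2 to day +2 (3.62). KRT8 fell from day −2 to day +2 in the control (−0.57), MMP2sh1 (−1.12) and MMP2sh2 (−0.96). KRT18 fell over that interval in MMP2sh1 (−0.29) and was not called in the control (−0.11) or MMP2sh2 (−0.02). From day 0 to day +2 KRT18 rose in all 3 lines (0.33, 0.33 and 0.30). CDH1 fell from day −2 to day +2 in all 3 (−3.83, −2.93 and −3.13), and EPCAM in the control (−0.49) and MMP2sh1 (−0.51). At day −2 KRT8 was higher than control in MMP2sh1 (0.64) and MMP2sh2 (0.43), and KRT18 in MMP2sh1 (0.25) and not in MMP2sh2 (0.02). Of the osteoblast markers, ALPL (−1.18) and COL1A1 (−0.15) fell in the control from day −2 to day +2. RUNX2 (0.66), SPARC (0.32) and SPP1 (1.03) rose. The part of these markers in the members' values was not tested.

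Per kilobase of exon, members differed widely in level. In subconfluent control cells TK1, thymidine kinase, stood highest at 262 ± 2.78 CPM per kb of union exon (SD, n = 3), followed by PCNA at 183 ± 5.77 and FEN1 at 105 ± 2.16, and POLA1 and POLA2, the catalytic and accessory subunits of polymerase alpha, stood lowest at 3.57 ± 0.268 and 5.31 ± 0.236. With the longest transcript as the length TK1, PCNA and POLA1 kept these places, but MCM7 (157) stood above FEN1 (115), and GINS3 (11.4) and ORC1 (16.2) below POLA2 (16.5). Subunits that act in one complex were not at one level. Among the MCM subunits MCM7 (97.4 ± 0.606), MCM3 (89.6 ± 2.03) and MCM2 (71.8 ± 1.65) came first, and MCM5 (45.4 ± 0.861), MCM4 (44.8 ± 1.07) and MCM6 (43.97 ± 0.862) followed, MCM4 differing from either neighbour by less than its SD and MCM5 from MCM6 by more than theirs. With the longest transcript these last became 71.7, 81.0 and 48.4 CPM per kb, so the order of MCM4 and MCM5 rests on the length used. GINS2 (26.3), GINS4 (14.2), GINS1 (10.2) and GINS3 (7.12) kept this order with either length, as did the clamp loader subunits RFC2 (38.8), RFC4 (21.9), RFC5 (18.6) and RFC3 (17.0). RRM1 and RRM2, the large and small subunits of ribonucleotide reductase, were at 42.2 and 44.4 CPM per kb of union exon, but at 56.4 and 111 with the longest transcript.

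Most replication genes fell after confluence in all 3 lines, after moving in both directions before it. From day 0 to day +2, 32 of the 37 fell in the control, 32 in MMP2sh1 and 34 in MMP2sh2, and none rose. Of all genes tested, 20.1%, 23.0% and 23.0% fell over the same interval and 21.3%, 23.1% and 22.5% rose. The members' median log2 fold change was −0.34, −0.40 and −0.38, where the median over all genes was 0.01 in each line. The falls were moderate: the lowest values were −0.61 ± 0.04 in the control, −0.64 ± 0.06 in MMP2sh1 and −0.71 ± 0.04 in MMP2sh2, for RRM2, POLE2 and RRM2. The same 30 members fell in all 3 lines, and LIG1, the ligase that seals Okazaki fragments, was the 1 member called in none (−0.00, 0.01 and −0.04). In bulk RNA, a smaller share of cells in S phase and less of each mRNA per cell cannot be told apart. The mitochondrial share of counts moved with the day as well, from 4.16% to 6.55% per library at day −2 to 5.49% to 7.15% at day +2, and its part in these values was not tested.

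**Figure D1:**
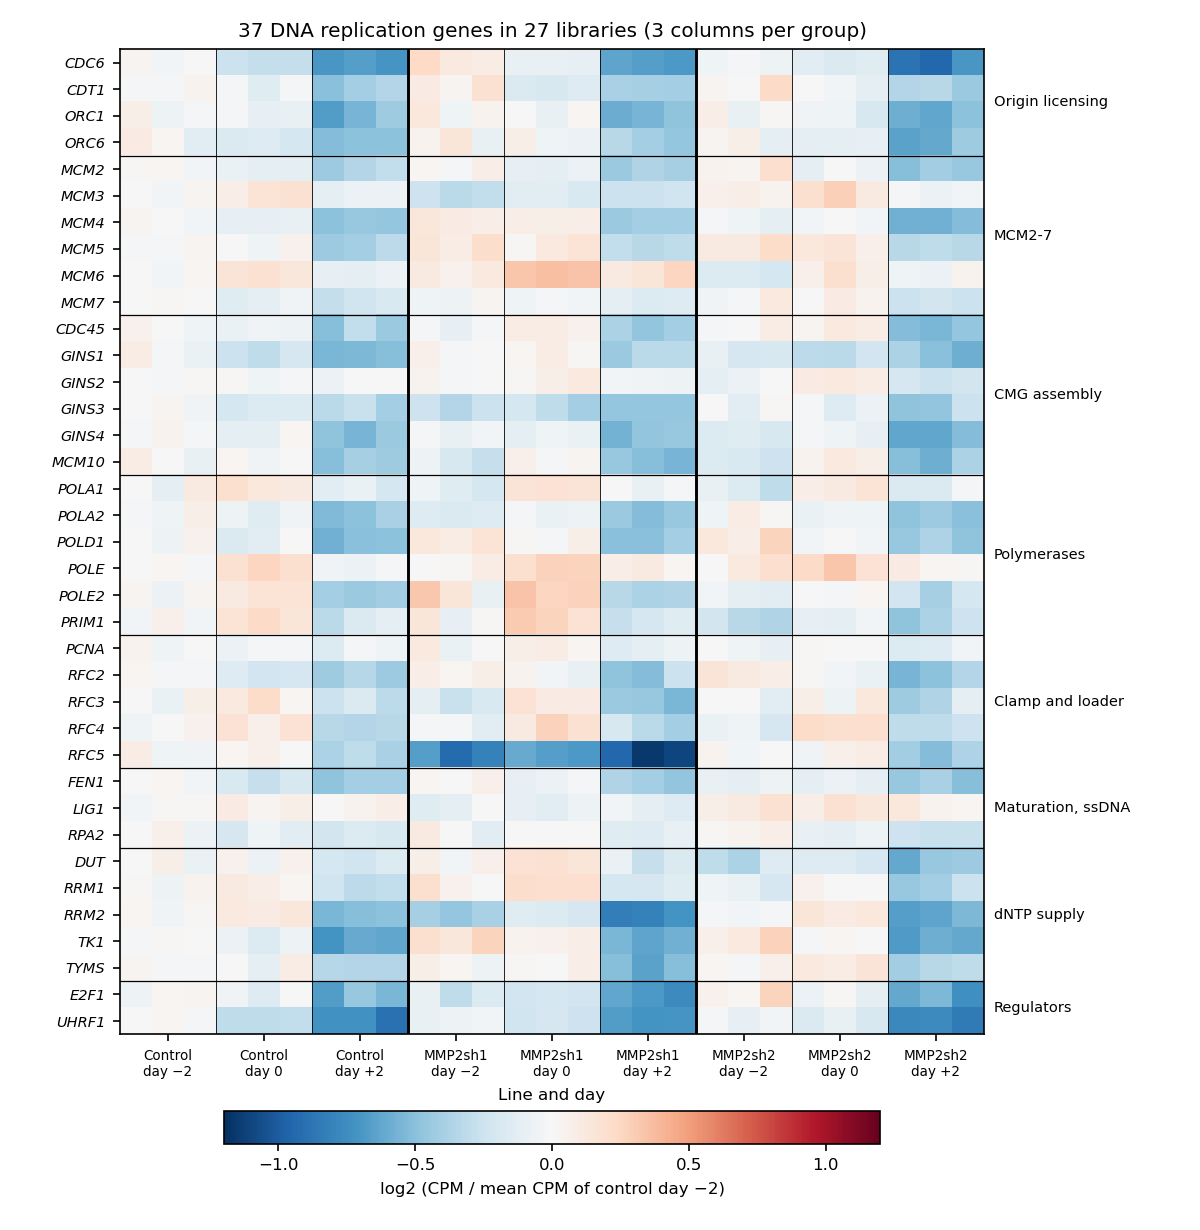
Level of each member (rows, grouped by role) in each of the 27 libraries (columns, 3 per line and day), as log2 of its CPM over the mean CPM of the control at day −2. Most rows turn blue at day +2 in all 3 lines, those of PCNA and LIG1 were not called between day −2 and day +2 in any line, and RFC5 is blue in all 9 MMP2sh1 libraries.

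From day −2 to day 0 the members did not move as a group. In the control 7 fell and 7 rose (background 19.1% and 16.4% of all genes), in MMP2sh1 5 fell and 10 rose (17.7% and 15.0%), and in MMP2sh2 5 fell and 7 rose (16.4% and 13.9%), with medians of −0.05, 0.02 and 0.03. Rises in all 3 lines were found for MCM6 (control 0.16), PRIM1, the catalytic subunit of primase (0.19), RFC4 (0.15) and RRM2 (0.12), and no member fell in all 3. The rise of RFC4 in the control was lost in 4 of 5 alternative fits and in 4 of 6 with 1 library left out. The rise of RRM2 was lost in 3 of 6 fits with 1 library left out in the control and in 4 of 6 and with the replicate block in MMP2sh2, and that of PRIM1 in 1, 2 and 3 of 6 in the control, MMP2sh1 and MMP2sh2. The control falls were those of UHRF1 (−0.30), CDC6, GINS1, FEN1, RFC2, GINS3 and ORC6. That of GINS3 was lost in 5 of 6 fits with 1 library left out and in 3 of 5 alternative fits, and that of ORC6 in 4 of 6. These counts lean on single libraries: the control's 14 calls became 9 without replicate 1 of day 0 or without replicate 1 or 2 of day −2, the 15 of MMP2sh1 became 9 without its replicate 1 of day 0, and the 12 of MMP2sh2 became 5 and 6 without its replicates 1 and 3 of day 0.

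**Figure D2:**
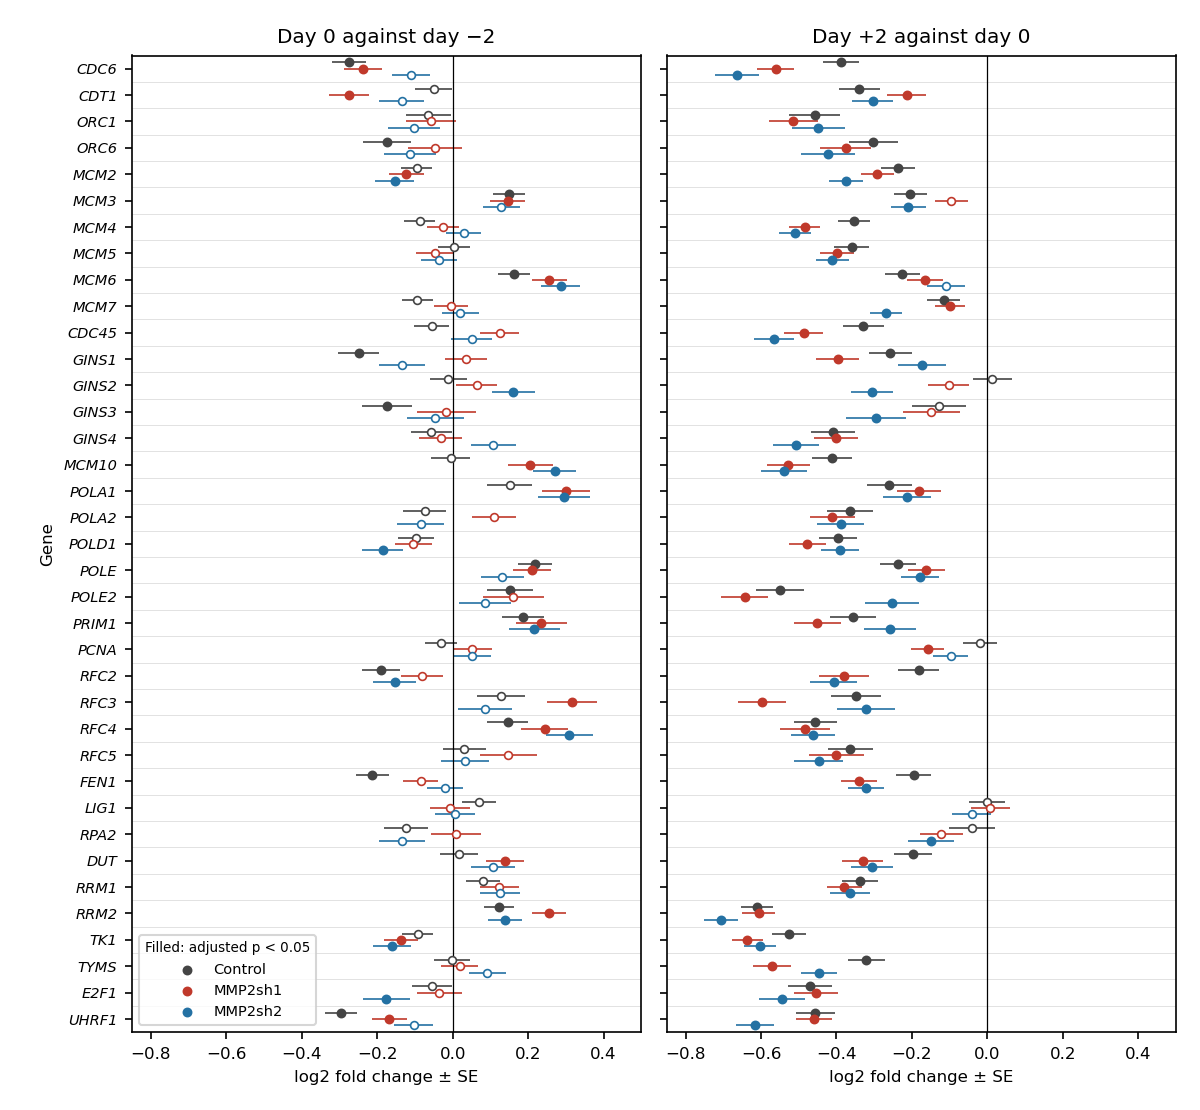
log2 fold change (x axis, bars are standard errors) of each member (y axis) from day −2 to day 0 (left) and from day 0 to day +2 (right) in the control, MMP2sh1 and MMP2sh2, with filled points for called members. Values lie on both sides of 0 before confluence and, but for LIG1 and the control's GINS2, below 0 after it.

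Taking the first and the last stage together, 30 members fell from day −2 to day +2 in the control, 27 in MMP2sh1 and 30 in MMP2sh2, against 28.6%, 27.7% and 27.1% of all genes. The only rise among the 37 was that of MCM6 in MMP2sh2 (0.16 ± 0.06), lost in 4 of 6 fits with 1 library left out, where 28.1%, 27.3% and 27.7% of all genes rose in the 3 lines. The medians were −0.38, −0.37 and −0.36. Summed over the 37 members, the control held 6168 ± 40.5 CPM at day −2, 6030 ± 88.5 at day 0 and 4820 ± 105 at day +2 (SD, n = 3). The sums were 6140 ± 145, 6198 ± 18.9 and 4810 ± 47.9 in MMP2sh1 and 6202 ± 134, 6272 ± 95.6 and 4733 ± 74.7 in MMP2sh2. Each line thus had lower sums in all day +2 libraries than in any of its earlier libraries. The same 26 members fell in all 3 lines, and MCM3, MCM6, POLA1, POLE, PCNA and LIG1 fell in none.

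In the control from day −2 to day +2 all 4 licensing genes fell: CDC6 −0.68, ORC1 −0.54, ORC6 −0.50 and CDT1 −0.41 on the log2 scale. CDC6, the ATPase that helps ORC load the MCM ring (GRCh37 chromosome 17, 38444131 to 38460909, plus strand), was at 166, 159 and 161 CPM at day −2, 135, 133 and 133 at day 0 and 99.7, 102 and 99.4 at day +2 in the control libraries. The change from day −2 to day +2 was −0.68 ± 0.05 (adjusted p = 2.3e-12, edgeR), and every day was clear of the one before it. CDC6 in MMP2sh1 was at 191, 176 and 173 CPM at day −2, 153, 152 and 152 at day 0 and 105, 102 and 100.2 at day +2. CDC6 in MMP2sh2 was at 156, 159.7 and 155 CPM at day −2, 147, 144 and 147 at day 0 and 87.5, 84.1 and 99.7 at day +2. The same order of days held in both, with no overlap between any pair of days. CDT1, the partner of CDC6 that is kept in check by geminin (GRCh37 chromosome 16, 88870197 to 88875666, plus strand), was at 114, 115 and 119.8 CPM at day −2, 115, 105 and 115 at day 0 and 82.2, 87.7 and 91.2 at day +2 in the control, where the first 2 days overlapped and day +2 lay below both. CDT1 in MMP2sh1 was at 124, 119 and 132 CPM at day −2, 103, 102 and 105 at day 0 and 88.9, 88.2 and 87.7 at day +2. CDT1 in MMP2sh2 was at 119, 116 and 136 CPM at day −2, 116, 114 and 108 at day 0 and 91.3, 92.6 and 85.3 at day +2. In MMP2sh1 the day 0 libraries already lay below those of day −2, with a change of −0.28 ± 0.05.

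Of the 6 subunits of the MCM ring 4 were called. MCM4 (−0.46), MCM5 (−0.38), MCM2 (−0.35) and MCM7 (−0.23) fell in the control from day −2 to day +2, while MCM3 (−0.08) and MCM6 (−0.08) were not called. In MMP2sh1 MCM7 was not called either (−0.12). For MCM2, 23.6% of the exon bases overlap other genes, the most with a noncoding gene on the other strand, so its counts are less certain. MCM4 was at 452, 441 and 430.4 CPM at day −2, 412, 412 and 415 at day 0 and 314, 322 and 319 at day +2 in the control. MCM4 in MMP2sh1 was at 483, 473 and 466 CPM at day −2, 467, 463 and 465 at day 0 and 324, 332 and 333 at day +2. MCM4 in MMP2sh2 was at 435, 427 and 408 CPM at day −2, 429.8, 438 and 432 at day 0 and 295, 295 and 307 at day +2. In each line the day +2 libraries lay below all earlier ones, with changes of −0.46 ± 0.04, −0.53 ± 0.05 and −0.50 ± 0.05. MCM3 (GRCh37 chromosome 6, 52128812 to 52149679, minus strand) was at 326, 319.5 and 334 CPM at day −2, 346, 365 and 370.1 at day 0 and 302, 311 and 312 at day +2 in the control, so that its rise to confluence (0.15 ± 0.04) and its fall after it (−0.20 ± 0.04) nearly cancelled. MCM6 (GRCh37 chromosome 2, 136597196 to 136634013, minus strand) followed the same course, at 183, 178 and 185 CPM at day −2, 202, 206 and 199.7 at day 0 and 170.2, 169 and 173 at day +2, rising by 0.16 ± 0.04 and falling again (−0.23 ± 0.05). The difference between MCM3 or MCM6 and the other subunits was not tested.

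Of the genes that convert the ring into the CMG helicase, 5 of 6 fell in the control from day −2 to day +2: GINS1 −0.53, GINS4 −0.49, MCM10 −0.44, CDC45 −0.41 and GINS3 −0.33. GINS2 was not called in the control (−0.02) or in MMP2sh1 (−0.06), and it fell in MMP2sh2 (−0.16, lost in 4 of 6 fits with 1 library left out and in 2 of 5 others). Its difference from its partners was not tested. GINS1 (GRCh37 chromosome 20, 25371644 to 25433336, plus strand) was at 87.3, 81.1 and 77.6 CPM at day −2, 68.5, 66.6 and 71.4 at day 0 and 56.1, 56.5 and 57.5 at day +2 in the control, each day below the one before it. GINS1 in MMP2sh1 was at 85.4, 80.7 and 81.6 CPM at day −2, 83.4, 87.3 and 82.8 at day 0 and 60.1, 65.4 and 65.5 at day +2. GINS1 in MMP2sh2 was at 77.2, 71.2 and 72.0 CPM at day −2, 65.9, 65.4 and 70.1 at day 0 and 63.1, 58.1 and 54.6 at day +2. In MMP2sh1 the first 2 days overlapped and the fall came after confluence (−0.40 ± 0.06). GINS2 (GRCh37 chromosome 16, 85709804 to 85723679, minus strand) was at 84.2, 83.8 and 85.6 CPM at day −2, 85.2, 81.4 and 84.0 at day 0 and 80.8, 84.2 and 84.0 at day +2 in the control, with the 3 days overlapping. GINS2 in MMP2sh1 was at 86.9, 83.5 and 84.8 CPM at day −2, 85.6, 88.9 and 91.8 at day 0 and 82.7, 82.4 and 81.0 at day +2. GINS2 in MMP2sh2 was at 77.9, 80.6 and 84.8 CPM at day −2, 90.8, 91.6 and 90.2 at day 0 and 73.4, 70.8 and 72.5 at day +2. In MMP2sh2 it rose to day 0 (0.16 ± 0.06, lost in 5 of 6 fits with 1 library left out) and then fell (−0.31 ± 0.06). Reads of GINS3 and GINS4 are less certain, since 10.9% and 23.4% of their exon bases overlap other genes. For each the largest overlap is with a noncoding gene on the other strand, and strand was not used in counting.

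Polymerases alpha and epsilon each had 1 subunit called and 1 not, and the difference between partners was not tested. POLA2 (−0.46) fell and POLA1 (−0.13), its catalytic partner, was not called, and POLE2 (−0.42), the accessory subunit of polymerase epsilon, fell while POLE (−0.04) was not called. Other genes cover 21.3% of the exon bases of POLA2, the most by a protein-coding gene model on the same strand, so its counts are less certain. POLD1, the catalytic subunit of polymerase delta, and PRIM1 fell (−0.52 and −0.19). POLD1 (GRCh37 chromosome 19, 50887461 to 50921275, plus strand) was at 179, 172 and 185 CPM at day −2, 158, 163 and 178 at day 0 and 119, 126 and 127 at day +2 in the control. POLD1 in MMP2sh1 was at 194, 189 and 199.9 CPM at day −2, 179.9, 175 and 187 at day 0 and 126, 126 and 135 at day +2. POLD1 in MMP2sh2 was at 194.9, 189 and 215 CPM at day −2, 175, 178 and 175 at day 0 and 130.3, 138 and 128 at day +2. Day +2 lay below both earlier days in all 3 lines, with changes of −0.52 ± 0.05, −0.60 ± 0.06 and −0.59 ± 0.06. POLE (GRCh37 chromosome 12, 133200339 to 133263962, minus strand) was at 147, 149 and 144 CPM at day −2, 166, 176 and 168 at day 0 and 142, 140.0 and 144 at day +2 in the control. POLE in MMP2sh1 was at 147, 148 and 156 CPM at day −2, 167, 177 and 177 at day 0 and 155, 158 and 149 at day +2. POLE in MMP2sh2 was at 147, 159 and 169 CPM at day −2, 172, 184 and 166 at day 0 and 157, 149 and 148 at day +2. It peaked at day 0 in the control (0.22 ± 0.05 to day 0 and −0.24 ± 0.05 after it) and in MMP2sh1, and its rise to day 0 was not called in MMP2sh2 (0.13 ± 0.06).

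The clamp was not called where its loader was, and the difference between them was not tested. PCNA was not called in the control from day −2 to day +2 (−0.07), while all 4 loader subunits fell: RFC2 −0.39, RFC5 −0.35, RFC4 −0.33 and RFC3 −0.24. PCNA (GRCh37 chromosome 20, 5095599 to 5107272, minus strand) was at 264, 248 and 257 CPM at day −2, 244, 253 and 252 at day 0 and 229, 252 and 247 at day +2 in the control, with the 3 days overlapping. PCNA in MMP2sh1 was at 277, 242 and 255 CPM at day −2, 269, 272 and 260.2 at day 0 and 231, 236 and 245 at day +2. PCNA in MMP2sh2 was at 255, 247 and 239.9 CPM at day −2, 259, 258 and 255 at day 0 and 228, 230.3 and 250.1 at day +2. A fall after confluence was called in MMP2sh1 (−0.16 ± 0.04) and not in MMP2sh2 (−0.10 ± 0.05) or the control. RFC2 (GRCh37 chromosome 7, 73645829 to 73668788, minus strand) was at 87.2, 85.2 and 85.1 CPM at day −2, 76.9, 73.4 and 74.5 at day 0 and 64.0, 67.9 and 63.3 at day +2 in the control, each day below the one before it. RFC2 in MMP2sh1 was at 90.7, 87.5 and 90.3 CPM at day −2, 88.3, 84.0 and 80.8 at day 0 and 61.5, 59.8 and 71.9 at day +2. RFC2 in MMP2sh2 was at 95.8, 92.5 and 90.9 CPM at day −2, 86.9, 83.9 and 81.1 at day 0 and 58.3, 61.2 and 67.2 at day +2. The libraries of day +2 lay below all others in each line.

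FEN1, the flap nuclease, and RPA2, a subunit of the single-strand binding protein, fell in the control (−0.43 and −0.19), and LIG1 was the 1 member above 0 (0.05). FEN1 (GRCh37 chromosome 11, 61560383 to 61564710, plus strand) was at 232, 235 and 225.9 CPM at day −2, 203, 191 and 202 at day 0 and 165, 174 and 174 at day +2 in the control. FEN1 in MMP2sh1 was at 235, 229.6 and 241 CPM at day −2, 216, 221 and 228 at day 0 and 179.8, 174 and 167 at day +2. FEN1 in MMP2sh2 was at 217, 214 and 222 CPM at day −2, 212, 220.1 and 213 at day 0 and 169, 176 and 162 at day +2. Day +2 lay below both other days in each line. LIG1 (GRCh37 chromosome 19, 48618702 to 48673860, minus strand) was at 130.4, 135 and 134 CPM at day −2, 142, 136 and 139.7 at day 0 and 133, 138 and 141 at day +2 in the control. LIG1 in MMP2sh1 was at 120.3, 123 and 133 CPM at day −2, 124, 122 and 128 at day 0 and 131, 122 and 119.6 at day +2. LIG1 in MMP2sh2 was at 139.7, 144 and 151 CPM at day −2, 140.5, 151 and 146 at day 0 and 146, 137 and 135 at day +2. Day +2 overlapped both other days in every line, and the widest of the 9 changes between days was 0.07 ± 0.05, from day −2 to day 0 in the control.

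All 5 genes of deoxynucleotide supply fell in the control from day −2 to day +2: TK1 −0.64, RRM2 −0.51, TYMS −0.34, RRM1 −0.28 and DUT −0.20. TK1 (GRCh37 chromosome 17, 76170172 to 76183314, minus strand), which salvages thymidine, was at 479, 489 and 484 CPM at day −2, 461, 431 and 464 at day 0 and 294, 318 and 315 at day +2 in the control. TK1 in MMP2sh1 was at 553, 533 and 582 CPM at day −2, 499, 503 and 511 at day 0 and 330.0, 312 and 324 at day +2. TK1 in MMP2sh2 was at 505, 524 and 587 CPM at day −2, 476, 492 and 482 at day 0 and 301, 322 and 316 at day +2. Every day lay below the one before it in all 3 lines, and the changes from day −2 to day +2 were −0.64 ± 0.05, −0.79 ± 0.06 and −0.78 ± 0.06 (adjusted p = 2.7e-12, 3.3e-11 and 7.0e-13, edgeR). RRM2 rose to confluence in each line and then showed the lowest value of any member after it in the control and MMP2sh2. DUT, which removes dUTP, had the smallest fall of the 5 (−0.20 ± 0.05). For TYMS, thymidylate synthase, 47.9% of the exon bases overlap other genes. Most of that overlap is with ENOSF1 on the other strand, which rose over the same interval (0.53 ± 0.08). Of the exon bases of DUT 14.5% overlap other genes, the most with the antisense gene DUT-AS1. The counts of TYMS and DUT are thus less certain.

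Both regulators fell in the control, UHRF1, which brings maintenance methylation to replicated DNA, with a change of −0.77 ± 0.05 (adjusted p = 6.8e-13, edgeR), and E2F1, a transcription factor that drives S phase genes, with one of −0.55 ± 0.06. UHRF1 (GRCh37 chromosome 19, 4903092 to 4962165, plus strand) was at 199, 202 and 197 CPM at day −2, 161, 161 and 162 at day 0 and 121, 120.4 and 107 at day +2 in the control. UHRF1 in MMP2sh1 was at 187, 191 and 195.0 CPM at day −2, 169, 173 and 168 at day 0 and 125, 121 and 122 at day +2. UHRF1 in MMP2sh2 was at 196, 186 and 194 CPM at day −2, 176, 188 and 175 at day 0 and 116.7, 118 and 111 at day +2. It had the largest fall of the 37 members in the control, and day +2 lay below both other days in each line. E2F1 (GRCh37 chromosome 20, 32263283 to 32274191, minus strand) was at 89.8, 94.9 and 95.6 CPM at day −2, 90.9, 84.1 and 93.6 at day 0 and 58.8, 68.2 and 63.8 at day +2 in the control. E2F1 in MMP2sh1 was at 87.6, 75.6 and 83.2 CPM at day −2, 79.8, 80.6 and 79.5 at day 0 and 60.8, 57.9 and 55.0 at day +2. E2F1 in MMP2sh2 was at 97.0, 95.02 and 112 CPM at day −2, 89.2, 94.5 and 86.3 at day 0 and 61.1, 64.5 and 56.3 at day +2. In the control and MMP2sh1 the first 2 days overlapped, and day +2 lay below both in all 3 lines.

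Promoters were searched because the members moved together. RefSeq promoters (GRCh38.p14, 250 bases before to 50 after each start) were matched for 33 of the 37, not for MCM4, MCM5, GINS4 and RPA2. An E2F motif, spelled TTTCCCGC, TTTCGCGC, TTTGCCGC or TTTGGCGC and searched on both strands, was found in 20 of the 33 (60.6%, 95% Wilson interval 43.7% to 75.3%) and in 1090 of 27305 genes in the table (3.99%). CCAAT, on either strand, was found in 20 of the 33 as well, and in 39.7% of all genes. The sites below are shown because they belong to the 8 members with the largest falls in the control among those that hold the motif, whose bases are in capitals, as read on the strand of the gene.
UHRF1, chr19:4909476-4909505, plus strand: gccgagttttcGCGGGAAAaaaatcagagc
CDC6, chr17:40287875-40287904, plus strand: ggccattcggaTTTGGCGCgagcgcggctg
E2F1, chr20:33686387-33686416, minus strand: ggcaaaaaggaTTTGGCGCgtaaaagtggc
GINS1, chr20:25407667-25407696, plus strand: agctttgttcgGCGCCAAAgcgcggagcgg
POLA2, chr11:65261898-65261927, plus strand: ttggctcccggTTTCGCGCatgcgtgcact
POLE2, chr14:49688201-49688230, minus strand: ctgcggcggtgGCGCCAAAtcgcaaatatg
CDT1, chr16:88803743-88803772, plus strand: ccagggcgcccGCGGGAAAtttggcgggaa
MCM2, chr3:127598402-127598431, plus strand: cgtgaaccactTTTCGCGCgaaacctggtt
The motif's first base lay between 53 bases before and 8 bases after the start, and the capitals read GCGGGAAA or GCGCCAAA where the motif lies on the other strand, and in MCM2 the 2 strands match at overlapping bases. The looser spelling TTTNNCGC was found in 22 of the 33 (66.7%), with ORC6 and RFC5 added, and in 8.23% of all genes. In the control from day −2 to day +2 the median log2 fold change was −0.28 over the 20 members with a spelled motif. It was −0.43 over the 13 without one, and 13 of each fell. The difference between these members, and the part of the motif in the falls, was not tested. TK1, RRM2, ORC1, POLD1, MCM10 and CDC45 were among those that fell without either spelling in their windows. MCM3, MCM6, POLA1, POLE, PCNA and LIG1, which fell in no line from day −2 to day +2, all hold a spelled motif. A match is a description of the sequence, not a measured site.

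In the control the medians of related gene lists were below 0 at day +2 as well, that of E2F and pocket protein genes least. Of 41 other replication genes 25 fell and 2 rose in the control from day −2 to day +2 (median −0.25), with POLE4 (−0.77), SSRP1 (−0.61) and CHAF1A (−0.58) lowest and POLD4 (0.79), MCM9 (0.24) and ASF1B (0.13, not called) highest. POLD4, a small subunit of polymerase delta, thus rose while POLD1 and POLD2 (−0.57) fell. Of 24 further genes of nucleotide synthesis 21 fell and 1 rose (median −0.44), led by NME1 (−1.03), IMPDH1 (−0.95) and CTPS1 (−0.84). TK2, the mitochondrial thymidine kinase, rose by 0.60 ± 0.07, opposite to the cytosolic TK1, and DCK (0.03) and DGUOK (−0.11) were not called. Of 12 E2F and pocket protein genes 3 fell and 3 rose in MMP2sh1 (median 0.07), and 4 fell and 4 rose in MMP2sh2 (median 0.04). In the control 6 of them fell and 3 rose (median −0.09). TFDP1 (−0.54), E2F8 (−0.40) and E2F2 (−0.38) were lowest, and TFDP2 (0.64), E2F5 (0.58) and RBL2 (0.51), the gene of the p130 pocket protein of resting cells, rose. Of 25 mitosis genes 19 fell and 2 rose (median −0.31), with CDC20 (−0.79), CDCA8 (−0.69) and AURKA (−0.60) lowest and CENPE (0.32), TOP2A (0.26) and CENPF (0.12, not called) highest. All genes of these lists were tested, and 28.6% and 28.1% of all genes fell and rose in this comparison. The summed level of the mitosis genes in the control was 5568 ± 131 CPM at day −2, 5980 ± 69.02 at day 0 and 4739 ± 45.1 at day +2 (SD, n = 3).

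To ask what MMP2 knockdown changes at each density, both knockdown lines were compared with the control on each day. At day −2 MMP2sh1 had 1 member higher and 4 lower than control (5.42% and 6.14% of all genes). At day 0 it had 10 higher and 5 lower (8.26% and 8.58%), and at day +2 it had 1 higher and 5 lower (7.68% and 7.11%). At day −2 MMP2sh2 had 4 lower and none higher (6.33% and 4.71%), at day 0 it had 2 lower and 2 higher (5.81% and 7.07%), and at day +2 it had 2 lower and none higher (3.43% and 2.89%). Medians of the members lay between −0.04 and 0.07 in all 6 comparisons. The other calls in MMP2sh1 were GINS3 (−0.28) at day −2, LIG1 (−0.16) and E2F1 (−0.17) at day 0, and RFC3 (−0.24) and TYMS (−0.21) at day +2, all lower, beside those described in turn. In MMP2sh2 MCM7 (0.13) and UHRF1 (0.14) were higher at day 0, MCM10 (−0.20) was lower at day −2 and GINS2 (−0.20) at day +2. Of these, the call of MCM10 was lost in 5, that of GINS2 in 4 and that of MCM7 in 3 of 6 fits with 1 library left out. In MMP2sh1 at day 0 the 10 higher members were GINS1 (0.29), CDC6, MCM6, RFC2, MCM4, FEN1, TK1, DUT, CDC45 and RRM1, 9 of them by under 0.20 on the log2 scale. Counts leaned on single libraries here too. Without replicate 2 of MMP2sh1 at day 0 the calls went from 15 to 9, 6 higher and 3 lower. For MMP2sh1 the 5 calls of day −2 became 3 without replicate 1 of the control and 8 without replicate 1 of MMP2sh1, and the 6 of day +2 became 3 without replicate 2 of MMP2sh1. For MMP2sh2 the 4 of day −2 became 2 without replicate 1 or 2 of the control or 2 of MMP2sh2, the 4 of day 0 became 2 without replicate 1 of the control or 2 of MMP2sh2, and the 2 of day +2 became 1 without replicate 2 or 3 of the control or 1 or 2 of MMP2sh2. Both lines are set against the same control libraries, so their calls are not independent. DUT at day 0 was higher in MMP2sh1 and lower in MMP2sh2 (0.15 and −0.20). No member was called with one sign in both lines on the same day, but this rests on the fit used. The share of all genes so called was not counted. With DESeq2 MCM5 and TK1 were so called at day −2 and CDC45, CDC6 and RFC2 at day 0. One fit of all 27 libraries so called MCM10, MCM5 and TK1 at day −2, and the replicate block MCM10 at day −2.

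**Figure D3:**
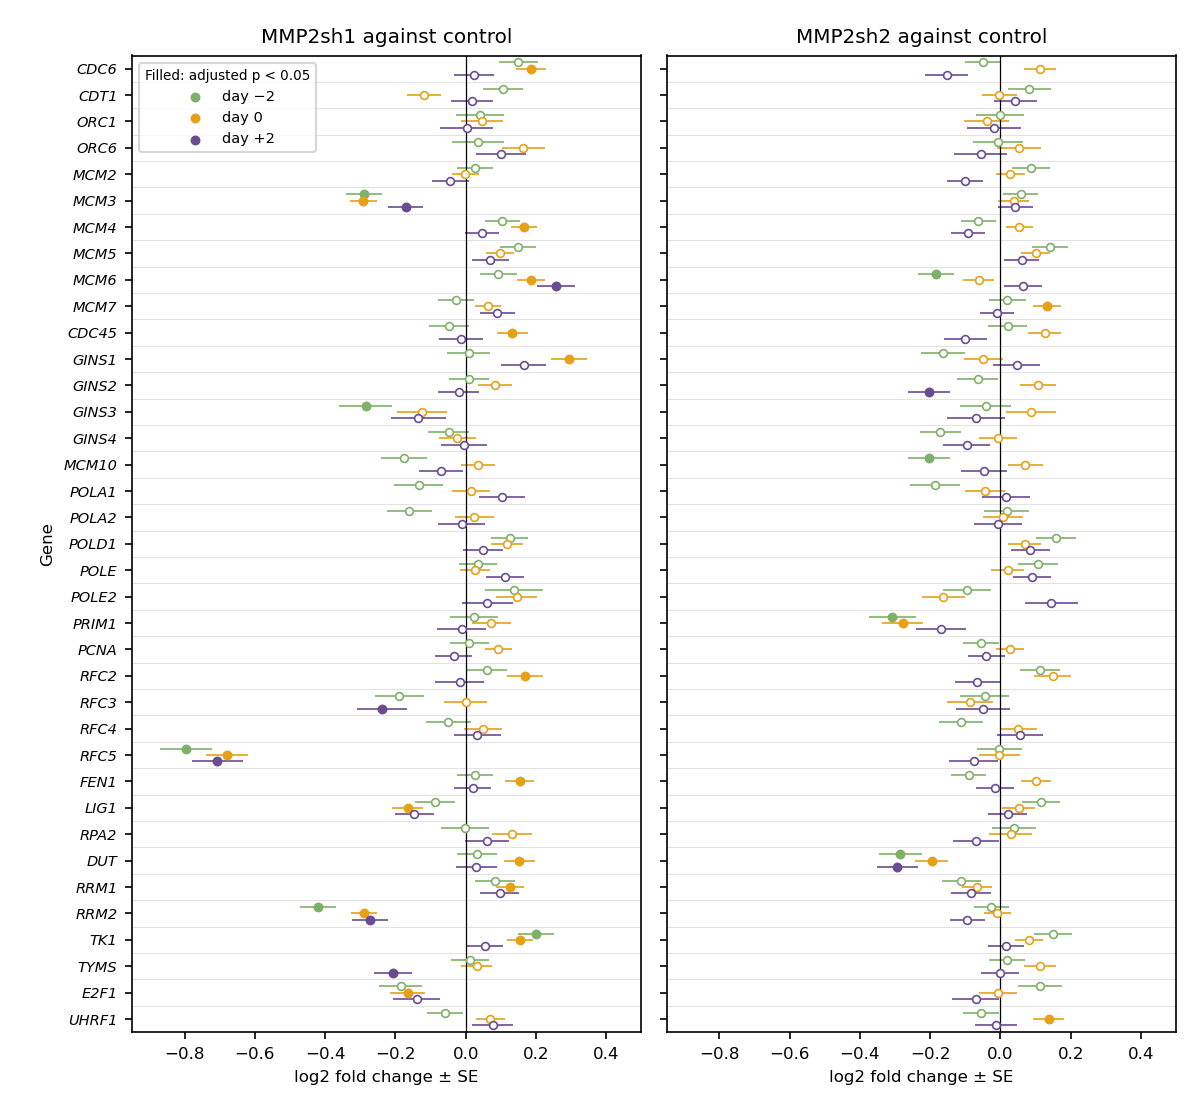
log2 fold change against control (x axis, bars are standard errors) of each member (y axis) in MMP2sh1 (left) and MMP2sh2 (right) at days −2, 0 and +2, with filled points for called members. RFC5, RRM2 and MCM3 are below 0 on all days in MMP2sh1 and DUT is in MMP2sh2.

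RFC5, a subunit of the clamp loader (GRCh37 chromosome 12, 118451393 to 118470935, plus strand), had the largest difference between lines. RFC5 in the control was at 64.2, 58.0 and 58.6 CPM at day −2, 61.3, 62.8 and 60.0 at day 0 and 46.2, 48.7 and 46.1 at day +2. RFC5 in MMP2sh1 was at 38.1, 31.9 and 34.3 CPM at day −2, 39.5, 38.1 and 37.5 at day 0 and 31.5, 27.02 and 28.1 at day +2. All 9 MMP2sh1 libraries lay below all 9 control libraries, whatever the day. The log2 fold changes against control were −0.80 ± 0.07 at day −2, −0.68 ± 0.06 at day 0 and −0.71 ± 0.07 at day +2 (adjusted p = 3.8e-08, 1.3e-10 and 2.6e-08, edgeR). RFC5 in MMP2sh2 was at 62.2, 58.9 and 60.0 CPM at day −2, 58.7, 62.7 and 64.3 at day 0 and 45.1, 42.0 and 46.8 at day +2, overlapping the control on every day (−0.00, −0.00 and −0.08). Set directly against MMP2sh2, MMP2sh1 was lower, with log2 fold changes of −0.80 ± 0.08, −0.67 ± 0.06 and −0.63 ± 0.08. The other loader subunits did not share this: RFC2 and RFC4 were not lower in MMP2sh1 on any day, and RFC3 was lower at day +2 alone (−0.24 ± 0.07).

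The gene next to RFC5 was lower as well. WSB2, which lies on the opposite strand, was at 121, 124 and 123 CPM in the control at day −2 and at 73.2, 73.2 and 78.2 in MMP2sh1. Of the exon bases of RFC5 10.6% overlap other genes, the most with WSB2. The log2 fold changes of WSB2 on the 3 days were −0.71, −0.88 and −0.85 in MMP2sh1, all called, and 0.16, 0.00 and −0.04 in MMP2sh2, none called. The annotated gene after it, VSIG10, was not called in MMP2sh1 (−0.19, −0.00 and −0.11). Of the 11 tested genes within 1000000 bases of RFC5, 3, 2 and 3 were lower in MMP2sh1 on the 3 days and 0, 1 and 1 higher. The highest value among them was 1.43, at day +2. WSB2 was the 1 that was lower on all 3 days. Of all genes 6.14%, 8.58% and 7.11% were lower on these days and 5.42%, 8.26% and 7.68% higher. These neighbours were looked up after the value of RFC5 was known. Reads in the shared bases are discarded in counting, and their part in the values of RFC5 was not tested.

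**Figure D4:**
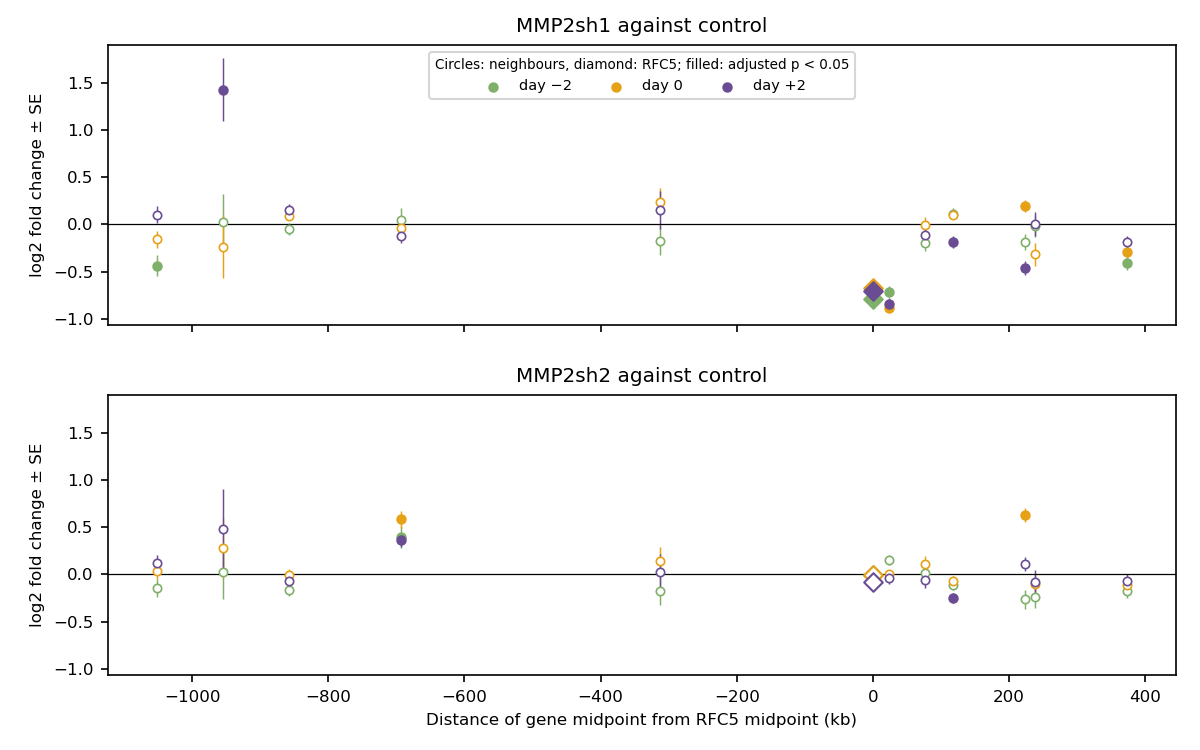
log2 fold change against control (y axis, bars are standard errors) of RFC5 (diamonds) and the 11 tested genes within 1000000 bases of it (circles), by distance of the gene midpoints in kb (x axis), in MMP2sh1 (top) and MMP2sh2 (bottom), filled where called. RFC5 and WSB2 stand alone near −0.7 to −0.9 in MMP2sh1 and lie near 0 in MMP2sh2.

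RRM2, the regulated subunit of ribonucleotide reductase (GRCh37 chromosome 2, 10260825 to 10351851, plus strand), was also lower in MMP2sh1 on every day. RRM2 in the control was at 413, 394 and 411 CPM at day −2, 442, 435 and 445 at day 0 and 278, 285 and 289 at day +2. RRM2 in MMP2sh1 was at 307, 294 and 309.6 CPM at day −2, 368, 363 and 353 at day 0 and 229, 231 and 247 at day +2. The 2 lines shared the rise to confluence and the fall after it, and on each day no MMP2sh1 library reached the control. The differences were −0.42 ± 0.05 at day −2, −0.29 ± 0.04 at day 0 and −0.27 ± 0.05 at day +2 (adjusted p = 2.9e-06, 5.0e-07 and 3.3e-04, edgeR), and like those of RFC5 they stayed called with any 1 library dropped. RRM2 in MMP2sh2 was at 401, 396 and 404 CPM at day −2, 448, 436 and 443 at day 0 and 257, 263 and 279 at day +2, overlapping the control on each day. RRM1, which forms the enzyme with RRM2, was not lower in MMP2sh1 and at day 0 was higher (0.13 ± 0.04).

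MCM3 was lower and MCM6 higher in MMP2sh1. MCM3 in MMP2sh1 was at 274, 261 and 267 CPM at day −2, 299, 299 and 288 at day 0 and 273, 274 and 276 at day +2, below every control library of the same day. The differences were −0.29 ± 0.05 at day −2, −0.29 ± 0.04 at day 0 and −0.17 ± 0.05 at day +2 (adjusted p = 3.8e-04, 1.2e-06 and 0.017, edgeR), and that at day +2 was lost in 3 of 6 fits with 1 library left out. MCM3 in MMP2sh2 was at 339.6, 346 and 337 CPM at day −2, 372, 397 and 352 at day 0 and 324, 310.3 and 319 at day +2. MCM6 in MMP2sh1 was at 196, 189 and 197 CPM at day −2, 229, 234 and 231 at day 0 and 196, 201 and 217 at day +2, above every control library of the same day. Calls were made at day 0 (0.19 ± 0.04) and day +2 (0.26 ± 0.05) and not at day −2 (0.09 ± 0.05). MCM6 in MMP2sh2 was at 163, 162 and 157 CPM at day −2, 190.2, 207 and 191 at day 0 and 175, 174 and 187 at day +2, and at day −2 it was lower than in the control (−0.18 ± 0.05), a call lost in 5 of 6 fits with 1 library left out. The 2 subunits of one ring thus stood at −0.35 and 0.27 between MMP2sh1 and MMP2sh2 at day −2, both called, and kept these directions, both called, at day 0 and day +2. At day +2 the call of MCM6 was lost in 4 of 6 fits with 1 library left out and that of MCM3 in 1.

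TK1 was higher in MMP2sh1 at day −2 (0.20 ± 0.05, adjusted p = 0.010, edgeR) and day 0 (0.15 ± 0.04, adjusted p = 0.0029), with no overlap of libraries on either day. At day +2 its difference was 0.06 ± 0.05 and the groups overlapped. In MMP2sh2 the corresponding values were 0.15, 0.08 and 0.02, none called, although its libraries also lay above those of the control at days −2 and 0. With DESeq2, and with 1 fit of all 27 libraries, TK1 was called with one sign in both lines at day −2.

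**Figure D5:**
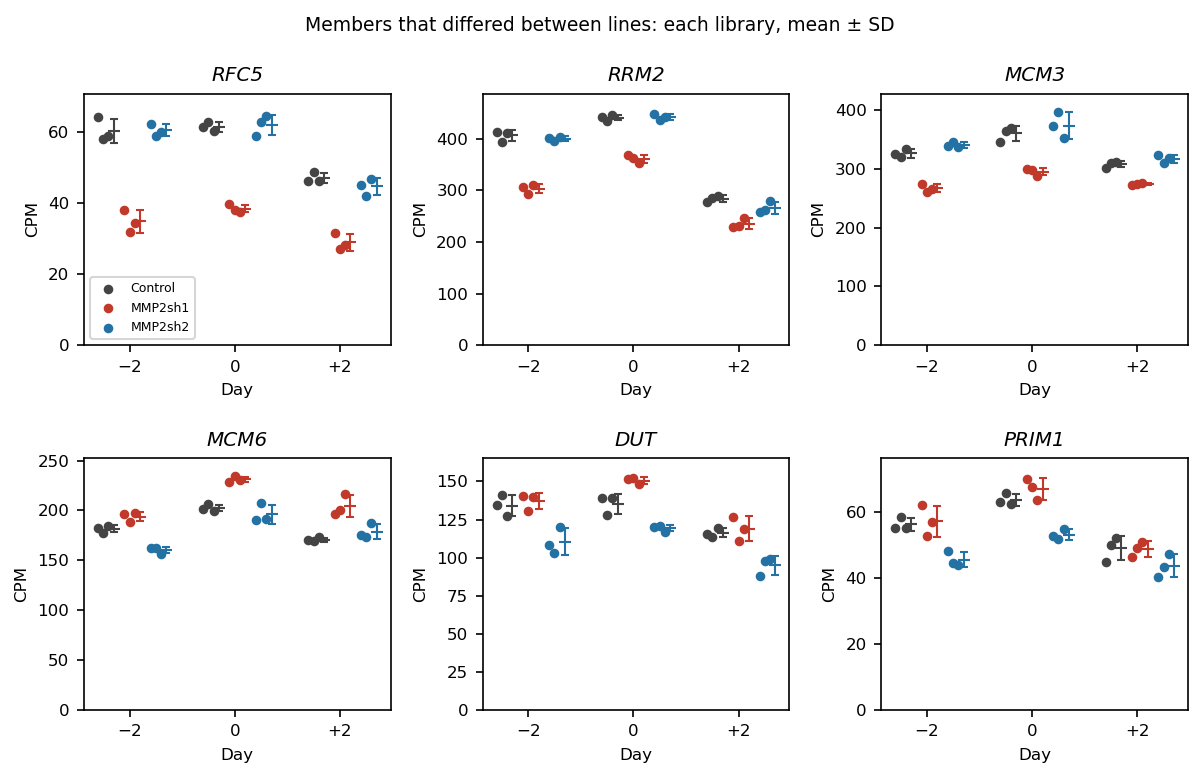
CPM (y axis) of 6 members in each library (points) with the mean and SD of 3 (bars), by day (x axis) and line. RFC5, RRM2 and MCM3 are lowest in MMP2sh1, MCM6 is highest there, and DUT and PRIM1 have their lowest means in MMP2sh2.

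In MMP2sh2 the members lower on more than 1 day were DUT and PRIM1. DUT (GRCh37 chromosome 15, 48623208 to 48635570, plus strand) in the control was at 134, 141 and 127 CPM at day −2, 139, 128 and 139 at day 0 and 116, 114 and 119 at day +2. DUT in MMP2sh2 was at 108, 103 and 120.3 CPM at day −2, 120.3, 120.5 and 116.9 at day 0 and 87.7, 97.7 and 99.2 at day +2, below every control library of the same day. The differences were −0.28 ± 0.06 at day −2, −0.20 ± 0.05 at day 0 and −0.29 ± 0.06 at day +2 (adjusted p = 0.0035, 0.0043 and 6.4e-04, edgeR), and no call was lost when any 1 library was dropped. DUT in MMP2sh1 was at 141, 131 and 139.7 CPM at day −2, 152, 152 and 148 at day 0 and 127, 111 and 119 at day +2, overlapping the control at days −2 and +2. Of the 10 tested genes within 1000000 bases of DUT, looked up after its value was known, 9, 10 and 10 were below 0 in MMP2sh2 on the 3 days (medians −0.17, −0.24 and −0.14). Of these 1, 4 and none were called lower (6.33%, 5.81% and 3.43% of all genes), and none was called higher. In MMP2sh1 7, 6 and 7 of these 10 were below 0. Of all genes, 49.5%, 50.6% and 50.2% were below 0 in MMP2sh2 on the 3 days, and 50%, 50.3% and 50.4% in MMP2sh1. The same lookup was made around other members with line differences. In MMP2sh1 4, 4 and 2 of 9 genes were below 0 around MCM3, which was lower there. Called higher were 0, 3 and 5 of them, and 1, 2 and 1 were called lower. Around RRM2, also lower, 8, 7 and 10 of 18 were below 0. There 0, 2 and 3 were called higher and 2, 3 and 3 lower. Around MCM6, which was higher, 6, 6 and 4 of 8 were below 0, with none called higher and 0, 0 and 1 lower. Around TK1, also higher, 3, 6 and 7 of 18 were below 0. There 5, 2 and 4 were called higher and 1, 2 and 1 lower. In MMP2sh2 5, 1 and 0 of the genes around TK1 were called higher and 1, 2 and 1 lower. At day −2 the median around TK1 was 0.17 in MMP2sh1 and 0.15 in MMP2sh2. Around PRIM1 in MMP2sh2 18, 26 and 29 of 61 were below 0. There 1, 7 and 1 were called higher and 0, 1 and 2 lower. Of all genes, 5.42%, 8.26% and 7.68% were called higher and 6.14%, 8.58% and 7.11% lower in MMP2sh1. In MMP2sh2 4.71%, 7.07% and 2.89% were called higher. What these neighbours share with the members was not tested.

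PRIM1 (GRCh37 chromosome 12, 57124222 to 57146158, minus strand) in the control was at 55.1, 58.6 and 55.2 CPM at day −2, 63.1, 65.9 and 62.4 at day 0 and 44.99, 49.95 and 52.2 at day +2. PRIM1 in MMP2sh2 was at 48.2, 44.6 and 43.9 CPM at day −2, 52.7, 51.8 and 54.9 at day 0 and 40.4, 43.3 and 47.3 at day +2. It was lower at day −2 (−0.31 ± 0.07, adjusted p = 0.0037, edgeR) and at day 0 (−0.28 ± 0.06, adjusted p = 9.2e-04), and at day +2 the groups overlapped (−0.17 ± 0.07). PRIM1 in MMP2sh1 was at 62.1, 52.7 and 57.0 CPM at day −2, 70.2, 67.7 and 63.6 at day 0 and 46.3, 49.1 and 50.9 at day +2, overlapping the control on each day. Other genes cover 19.1% of the exon bases of PRIM1, the most by a protein-coding gene model on the same strand, so its counts are less certain.

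Between the knockdown lines, MMP2sh1 had 4 members higher and 5 lower than MMP2sh2 at day −2 (5.01% and 5.69% of all genes), 7 and 6 at day 0 (8.90% and 9.62%) and 2 and 4 at day +2 (4.59% and 3.27%). DUT and MCM6 were higher and RFC5, RRM2 and MCM3 lower in MMP2sh1 on all 3 days, the call of RRM2 at day +2 being lost in 5 of 6 fits with 1 library left out. PRIM1 was higher at days −2 and 0 (0.33 and 0.35), and LIG1 and E2F1 were lower on the same days (LIG1 −0.21 and −0.21, E2F1 −0.31 and −0.16). The 6 calls of day +2 became 3 without replicate 2 of MMP2sh1 or of MMP2sh2 and 2 without replicate 1 of MMP2sh2.

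The change with culture density was then compared between lines by the interaction of line and day, fitted on 12 libraries. For MMP2sh1 no member was called from day −2 to day 0 (background 0.907% higher and 0.446% lower) or to day +2 (4.52% and 2.88%). With edgeR 8 and 4 of the 37 members had an unadjusted p under 0.05, beside 11.51% and 20.04% of all genes, and DESeq2 called 2 and 1 members. For MMP2sh2 1 member was called in each, MCM10 from day −2 to day 0 (2.46% higher and 1.23% lower) and MCM6 from day −2 to day +2 (2.71% and 2.28%). MCM10, which recruits factors to the helicase (GRCh37 chromosome 10, 13203558 to 13253110, plus strand), was at 96.1, 90.4 and 85.3 CPM at day −2, 91.8, 87.9 and 90.4 at day 0 and 63.5, 68.8 and 67.5 at day +2 in the control. MCM10 in MMP2sh2 was at 80.6, 79.8 and 76.4 CPM at day −2, 93.4, 97.9 and 95.1 at day 0 and 63.5, 60.5 and 69.7 at day +2. It rose to day 0 there (0.27 ± 0.06) and not in the control (−0.01 ± 0.05), a difference of 0.29 ± 0.08 (adjusted p = 0.026, edgeR). MCM10 in MMP2sh1 was at 86.9, 79.0 and 75.0 CPM at day −2, 94.7, 90.0 and 92.5 at day 0 and 66.0, 63.6 and 61.4 at day +2, and its rise to day 0 was called as well (0.21 ± 0.06), while its interaction was not (0.21 ± 0.08). For MCM6 the change from day −2 to day +2 was 0.16 ± 0.06 in MMP2sh2 and −0.08 ± 0.05 in the control, a difference of 0.24 ± 0.07 (adjusted p = 0.038, edgeR). Each of these 2 interactions was lost in 8 of 12 fits with 1 library left out. Interactions over the interval from day 0 to day +2 were not tested, and a member that was not called is not shown to change alike in 2 lines.

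Some genes of the related lists differed from control in both knockdown lines in one direction on the same day, and both lines share the control libraries. The share of all genes so called in both lines was not counted, so the genes below have no background beside them. At day −2 those lower in both were, with values for MMP2sh1 and MMP2sh2, MCM8 (−0.23 and −0.28), WDHD1 (−0.27 and −0.27), RRM2B (−0.26 and −0.30), MKI67 (−0.24 and −0.22), NUSAP1 (−0.19 and −0.25), CENPF (−0.21 and −0.27) and CENPE (−0.26 and −0.34). At day 0 POLE4 (0.33 and 0.39), NME1 (0.34 and 0.24), CTPS1 (0.24 and 0.23), SHMT2 (0.13 and 0.15) and TFDP1 (0.15 and 0.16) were higher. RB1, the retinoblastoma gene (−0.26 and −0.27), RBL1 (−0.23 and −0.27), CENPF (−0.14 and −0.22) and CENPE (−0.20 and −0.32) were lower at day 0. At day +2 there was none. In MMP2sh1 at day 0, 11 of the 24 further nucleotide synthesis genes were higher and 1 lower (8.26% of all genes were higher), and in MMP2sh2 3 were higher and none lower.

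Across the 27 libraries members followed one another to very different degrees. The Pearson correlation of log2 CPM of a member with the mean z-score of the other 36 was 0.98 for CDC45, 0.96 for GINS4, 0.95 for MCM4 and ORC1 and under 0.5 for RFC5 (0.44), POLA1 (0.44), MCM3 (0.34), MCM6 (0.25) and LIG1 (0.05). Among all other genes the 10 most like the members' mean were HNRNPA1P33 (r = 0.985), CAV1 (0.985), TPM1 (0.983), RHOBTB3 (0.982), TGFB2 (0.982), MTHFD1 (0.980), ZNF404 (0.980), WWC2 (0.977), VDAC3 (0.975) and CYP24A1 (0.975). These are descriptions over 27 libraries of 9 groups, which share the line, the day and the scaling, and the day separates the libraries.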

How the data were processed

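Total RNA of U2OS lines was extracted with TRIzol, poly(A) selected, made into NEBNext Ultra II libraries and sequenced as paired ends. According to the study's methods, the authors used Trim Galore 0.6.0 for trimming, STAR 2.7.3a for alignment to hg19 and HTSeq 2.0.0 for counts over exons, in union mode without strand, so reads in bases shared by 2 genes are discarded. The authors deposited these raw counts per gene. The annotation is not given in the sources used here. Summary lines, 16.8% to 19.1% of each file, were left out.

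Each comparison used the libraries of its groups in edgeR 4.0.16 (R 4.3.3) with TMM scaling, filterByExpr (minimum count 10, total 15) and the quasi-likelihood test, with p-values adjusted over all genes tested by the method of Benjamini and Hochberg. The standard error is the size of the log2 fold change over the square root of F. Levels used TMM factors over 27 libraries. Replicates of a group differed by more than sampling noise (chi-square per degree of freedom 4.74 to 24.6 over 27 pairs). Tested on simulated data for the control between days −2 and +2, the test recovered 176 of 200 genes changed 2-fold with 8 false calls among 18594 genes. For the interaction of MMP2sh1 or control with day −2 to day +2 it recovered 160 of 200 with 16 false calls among 19313. The simulated dispersion was set by a rule and not estimated from the replicates. All changes of members were smaller than 2-fold, and the recovery of such changes was not tested. DESeq2 1.42.0, a fit of all 27 libraries, median-of-ratios scaling, no filter, a replicate block and leaving out each library were the alternatives.

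Named with full values were the members with the lowest and the highest change in each role (control, day −2 to day +2), those called against control with one sign on at least 2 days in either knockdown line, and those called in an interaction. Of the other lists, the 3 lowest and 3 highest and those called in both knockdown lines were named. The members and lists were chosen with earlier results of these data known. Positions and exon overlaps are from GENCODE v44 on GRCh37, promoters from RefSeq on GRCh38.p14.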

Additional observations from a re-analysis of the deposited data

Results flagged for a closer look

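Both results here are differences between 2 lines in how a member changed with culture density, tested by the interaction itself. MCM10 changed by 0.29 ± 0.08 more on the log2 scale in MMP2sh2 than in the control from day −2 to day 0 (0.287433, adjusted p = 0.026, edgeR), and the estimate ranged from 0.22 to 0.30 when each library was left out. MCM6 changed by 0.24 ± 0.07 more in MMP2sh2 than in the control from day −2 to day +2 (0.243933, adjusted p = 0.038, edgeR), with 0.21 to 0.27 when each library was left out. Both calls were lost in 8 of 12 such fits. That of MCM10 was also lost with no filter on low counts, and that of MCM6 with no filter, with median-of-ratios scaling and with the replicate block. In MMP2sh1 neither interaction was called.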

How the results depend on the processing

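No member changed direction past the threshold under any alternative: of 9842 values of single members under all settings, 9445 stayed on their side of it, 275 lost their call and 122 gained one. Falls after confluence were called for 31 to 32 members in the control, 29 to 32 in MMP2sh1 and 32 to 34 in MMP2sh2 when each library was left out, and from day −2 to day +2 for 29 to 30, 25 to 28 and 26 to 30 (rises included). Smaller counts moved more. Leaving out each library gave, from day −2 to day 0, 9 to 16 calls in the control, 9 to 19 in MMP2sh1 and 5 to 13 in MMP2sh2. Against control at days −2, 0 and +2 it gave 3 to 8, 9 to 15 and 3 to 8 in MMP2sh1 and 2 to 3, 2 to 4 and 1 to 3 in MMP2sh2, and between the knockdown lines 6 to 11, 10 to 12 and 2 to 6. The interactions gave 0 to 1 for MMP2sh1 to either day, 0 to 2 for MMP2sh2 to day 0 and 0 to 1 to day +2. The 0 calls of MMP2sh1 to day 0 became 1 without replicate 3 of the control or replicate 1 of MMP2sh1 at day −2, those to day +2 became 1 without replicate 3 of MMP2sh1 at day −2, and the 1 call of MMP2sh2 to day 0 became 2 without its replicate 3 of day −2.

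DESeq2 called 8 members in each knockdown line against control at day −2 (5 for MMP2sh1 and 4 for MMP2sh2 with edgeR), 7 in MMP2sh2 at day 0 (4), 10 between the knockdown lines at day +2 (6), and 2, 1 and 3 in the interactions of MMP2sh1 to day 0 and day +2 and of MMP2sh2 to day 0 (0, 0 and 1). One fit of all 27 libraries called 8 in each line at day −2, 15 and 11 between the lines at days −2 and +2 (9 and 6), and 1 in the interaction of MMP2sh1 to day +2. Without a filter both interactions of MMP2sh2 had 0 calls, and median-of-ratios scaling left 0 in that to day +2. With the replicate block 8 members were called in MMP2sh1 at day −2, 15 and 10 between the lines at days −2 and +2, 1 in the interaction of MMP2sh1 to day 0 and 0 in that of MMP2sh2 to day +2. Over all genes the replicate numbers showed no pairing of the samples. The 54 correlations of deviations between same-numbered libraries lay between −0.02 and 0.04, and in 22 of these 54 comparisons the own number correlated best. Pairing in a subset of genes was not tested. The causes of these moves were not tested. Another scaling moved the median of all genes by at most 0.02 on the log2 scale. With 3 libraries a group, small differences between lines stay near the threshold, and a member that was not called is not shown to be equal.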

Other observations

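In subconfluent MMP2sh2 cells, genes of 2 related lists were called below the control more often than above it. At day −2, 12 of 41 other replication genes were lower and 2 higher (median −0.15), and 11 of 25 mitosis genes were lower and 2 higher (median −0.14), where 6.33% of all genes were lower and 4.71% higher. In MMP2sh1 on that day 4 of the 41 were lower and none higher (median −0.06), and 4 of the 25 were lower and 2 higher (median −0.02), where 6.14% of all genes were lower and 5.42% higher. At day +2 none of the 41 was called in MMP2sh2 and 2 of the 25 were lower. Of the 37 members 4 were lower in MMP2sh2 at day −2, with a median of −0.03. The difference between the lists, and that between the days for the lists, was not tested.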
